A study of Mus musculus with 8 samples.

Results

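The mitochondrial ribosomal protein genes were followed in mammary tumours of mice that carry normal-length or expanded huntingtin. Members were all genes whose symbol starts with Mrpl or Mrps followed by a digit and that had a probe set with that single symbol. Mrpl33 was left out because it lies near Htt, the gene that differs between the genotypes. The rule found 67 genes of 14860 genes with a single symbol, and 23332 probe sets were tested in all. Of the 67, 44 encode large-subunit proteins and 22 small-subunit proteins. Mrps36 carries the name but is a component of the 2-oxoglutarate dehydrogenase complex. For Mrpl48, which had more than 1 such probe set, the one with the highest mean was used, and 3 probe sets that name a member together with another gene were not used.

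Gene expression was measured on Affymetrix Mouse Exon 1.0 ST arrays, 1 per tumour, in mammary tumours of 2 genotypes on an FVB/CD1 background, MMTV-PyVT/HdhQ7/Q7 (n = 4) and MMTV-PyVT/HdhQ111/Q111 (n = 4). All 8 tumours arose from a transgene in which polyoma virus middle T is under the MMTV promoter, active in mammary epithelium, and none was treated. Both Hdh alleles encode 7 glutamines in the first group, the wild-type length in mice, and 111 in the second, from a knock-in. Values are the deposited log2 signals per probe set, so that 1 unit is a doubling. Tumours appeared earlier in HdhQ111/Q111 mice according to the study, and those on the arrays were taken at a set interval after detection. Age and genotype therefore cannot be told apart. It is not stated if the tumours came from separate mice, so a p-value here covers only the spread among these 8. The tissue is bulk tumour, in which fewer cells of a type and less RNA per cell cannot be told apart. The luminal epithelium markers had mean signals of 11.8 to 12.1 in the 8 tumours, whose array medians were 7.58 to 7.74.

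Mitochondria translate the few proteins of their own genome, all of them subunits of the respiratory chain and ATP synthase, on ribosomes of their own. The RNA of these ribosomes is transcribed from mitochondrial DNA, whereas every protein is encoded in the nucleus, made in the cytosol and imported. Some of the proteins have a counterpart in bacterial ribosomes (40 members) and others are specific to mitochondria (26 members). The large subunit forms peptide bonds and the small subunit reads the messenger RNA.

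The promoters of the members are shown because the members shared an order of tumours, described further on. RefSeq windows on GRCm38.p6, from 250 bases before to 50 after each start, were given for 58 of the 67 members, and 3 motifs of factors known to act on nuclear genes for mitochondria were searched on both strands. The NRF-1 motif, GCGCANGCG followed by C, was in 11 member genes (19.0%) and in 5.2% of 27025 genes. The ETS motif, CCGGAAG, to which GABP binds, was in 19 member genes (32.8%) and in 9.9% of all. The YY1 motif, ANATGGCG, was in 9 member genes (15.5%) and in 4.2% of all. Member windows also held more G and C (median 58.7% against 52.7%), and the first 2 motifs are rich in these bases. The letters CG were more frequent too (median 22.5 per member window against 7.0 over all windows), and each of the 3 motifs contains them. The part of base composition in the shares with a motif was not tested. The stretches below run up to the start of the member, with motif letters in capitals. Mrpl12 and Mrpl45 stand for the NRF-1 motif and Mrpl22 for ETS. Mrpl46 and Mrpl21 are shown as the members with the smallest p between the genotypes. Mrpl46 had none of the motifs in its window, and Mrpl21 had an ETS motif in its window but outside the stretch printed. For these last 2 the stretch spans the bases between the start of the member and that of the facing gene on the other strand. That gene is Mrps11 for Mrpl46 and Ighmbp2 for Mrpl21. The window of Mrps11 held a YY1 motif, also outside the stretch printed.
Mrpl12 (chr11:120484517-120484636, plus strand): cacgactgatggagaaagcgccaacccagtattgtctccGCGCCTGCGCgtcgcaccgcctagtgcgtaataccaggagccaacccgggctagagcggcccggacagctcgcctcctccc
Mrpl45 (chr11:97315596-97315715, plus strand): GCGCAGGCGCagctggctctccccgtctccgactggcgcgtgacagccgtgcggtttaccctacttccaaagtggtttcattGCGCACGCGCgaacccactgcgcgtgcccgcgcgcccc
Mrpl22 (chr11:58171544-58171663, plus strand): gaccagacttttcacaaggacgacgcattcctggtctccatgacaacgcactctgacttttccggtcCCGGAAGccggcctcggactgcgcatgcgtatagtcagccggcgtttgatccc
Mrpl46 (chr7:78783090-78783130, minus strand): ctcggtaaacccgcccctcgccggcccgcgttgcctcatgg
Mrpl21 (chr19:3283011-3283041, plus strand): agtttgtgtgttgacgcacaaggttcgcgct

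The first base of the NRF-1 match in Mrpl12 lay 81 bases before the start. The Mrpl45 matches began 120 and 38 bases before it. A match is a run of letters and not a measured binding site. The median log2 fold change between the genotypes was 0.09 in the 33 members with any of the 3 motifs and 0.12 in the 25 without. It was above 0 in 26 of the 33 and in 24 of the 25. By motif, with and without it, members above 0 were 13 of 19 and 37 of 39 for ETS. They were 10 of 11 and 40 of 47 for NRF-1, and 7 of 9 and 43 of 49 for YY1. These differences were not tested. In 24 of the 58 members with a window, another gene started on the opposite strand within the 1000 bases before the member's start. The share over all genes was not counted, so this is not a trait of the members. Among those with a window, Mrpl46 with Mrps11 was the only such pair of members. Although they share these bases, Mrpl46 differed between the genotypes by 0.24 (log2) and Mrps11 by 0.04 (adjusted p = 0.621 and 0.918, limma).

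The question was whether the mitochondrial ribosomal protein genes differ in expression between tumours with expanded and normal-length huntingtin. No member passed an adjusted p under 0.05 (limma, Benjamini-Hochberg over all probe sets), a threshold that 0.0129% of all probe sets passed. No member passed the thresholds of the study, 1.5-fold or more together with p no higher than 0.05 before adjustment, which 1.36% of all probe sets passed. At an unadjusted p of at most 0.05, 3 members were higher in HdhQ111/Q111 tumours (4.48%, against 5.2% of all probe sets) and 0 were lower (against 2.68%). The methods' t-test also gave 3 higher (4.48%, against 4.48% of all probe sets) and 0 lower, with Mrps9 in place of Mrpl46. The log2 fold change was above 0 in 59 members (88.1%), against 56.4% of all probe sets. Its median was 0.10, against 0.02 over all probe sets. Without the dimmest 40% of probe sets, 56 of 64 members were above 0, against 62.5% of all probe sets kept. With every array centred on its median, 46 members were above 0, against 36.6% of all probe sets, and the median of the members was 0.04.

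The differences were small in nearly every member. The 95% interval lay inside a 1.5-fold change either way in 64 members and reached a 1.5-fold rise in the other 3. It reached a 1.5-fold fall in 0. The standard error of a member's log2 fold change had a median of 0.10, against 0.11 over all probe sets. Mean signals of the members ran from 6.43 to 10.4, and 5 members were below the median of all probe sets.

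**Figure D1:**
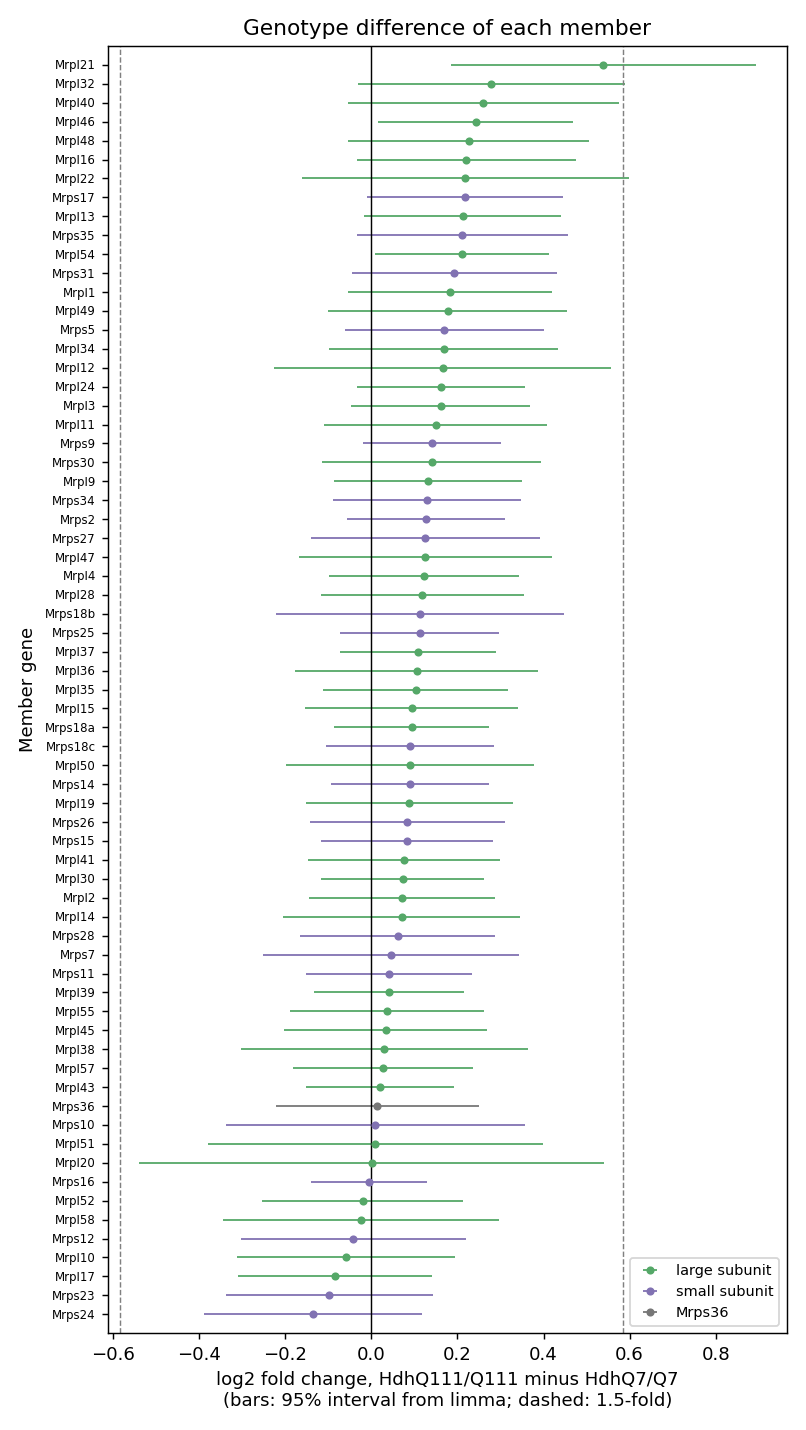
Log2 fold change (HdhQ111/Q111 minus HdhQ7/Q7, horizontal axis) of each of the 67 members, with 95% intervals from limma on 4 tumours per genotype, green for the large subunit, purple for the small subunit and grey for Mrps36. The estimates run from -0.14 to 0.54, 59 of them lie right of 0, and the intervals of 3 members exclude 0.

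In the large subunit 40 of 44 genes had a log2 fold change above 0, with a median of 0.11. In the small subunit 18 of 22 were above 0, with a median of 0.09. Members with a bacterial counterpart had a median of 0.10 (35 of 40 above 0) and those specific to mitochondria 0.10 (23 of 26 above 0). Differences between these classes were not tested.

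Mrpl21, a large-subunit protein with a bacterial counterpart, had the largest estimate. Its signals were 5.96, 6.06, 6.46 and 6.15 in HdhQ7/Q7 replicates 1 to 4 and 6.66, 6.42, 7.07 and 6.64 in HdhQ111/Q111 replicates 1 to 4. The genotypes overlapped only where HdhQ7/Q7 replicate 3 exceeded HdhQ111/Q111 replicate 2. The means were 6.16 ± 0.22 and 6.70 ± 0.27 (SD, n = 4 each), a log2 fold change of 0.54 (SE 0.15, adjusted p = 0.533, limma), with an exact permutation p of 0.0571, two-sided. It was the member with the lowest mean signal.

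Mrpl46, part of the central protuberance of the large subunit, was the only member in which every HdhQ111/Q111 tumour lay above every HdhQ7/Q7 tumour (1.49% of members, against 2.7% of all probe sets). Its signals were 8.66, 8.62, 8.60 and 8.72 in HdhQ7/Q7 tumours and 8.77, 8.82, 9.18 and 8.80 in HdhQ111/Q111 tumours. The other HdhQ111/Q111 values lay close above the HdhQ7/Q7 range and replicate 3 stood apart. The log2 fold change was 0.24 (SE 0.10, adjusted p = 0.621, limma), and the exact permutation p of 0.0286 is the smallest that 70 labellings can give. No member had every HdhQ111/Q111 tumour below every HdhQ7/Q7 tumour, against 1.72% of all probe sets.

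Mrpl54, a mitochondria-specific protein of the large subunit, had signals of 8.59, 8.69, 8.69 and 8.79 in HdhQ7/Q7 and of 8.75, 8.81, 9.04 and 9.01 in HdhQ111/Q111 tumours. Replicates 3 and 4 of HdhQ111/Q111 were above all others and replicate 1 overlapped the HdhQ7/Q7 range. The log2 fold change was 0.21 (SE 0.09, adjusted p = 0.630, limma, exact permutation p = 0.0571). Neither Mrpl46 nor Mrpl54 kept an unadjusted p of at most 0.05 (limma) when HdhQ111/Q111 replicate 3 or any one of HdhQ7/Q7 replicates 1, 2 and 3 was left out, and Mrpl54 also lost it without HdhQ111/Q111 replicate 4. The same held for both after quantile normalization or centring, and for Mrpl46 with the replicate number as a block.

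**Figure D2:**
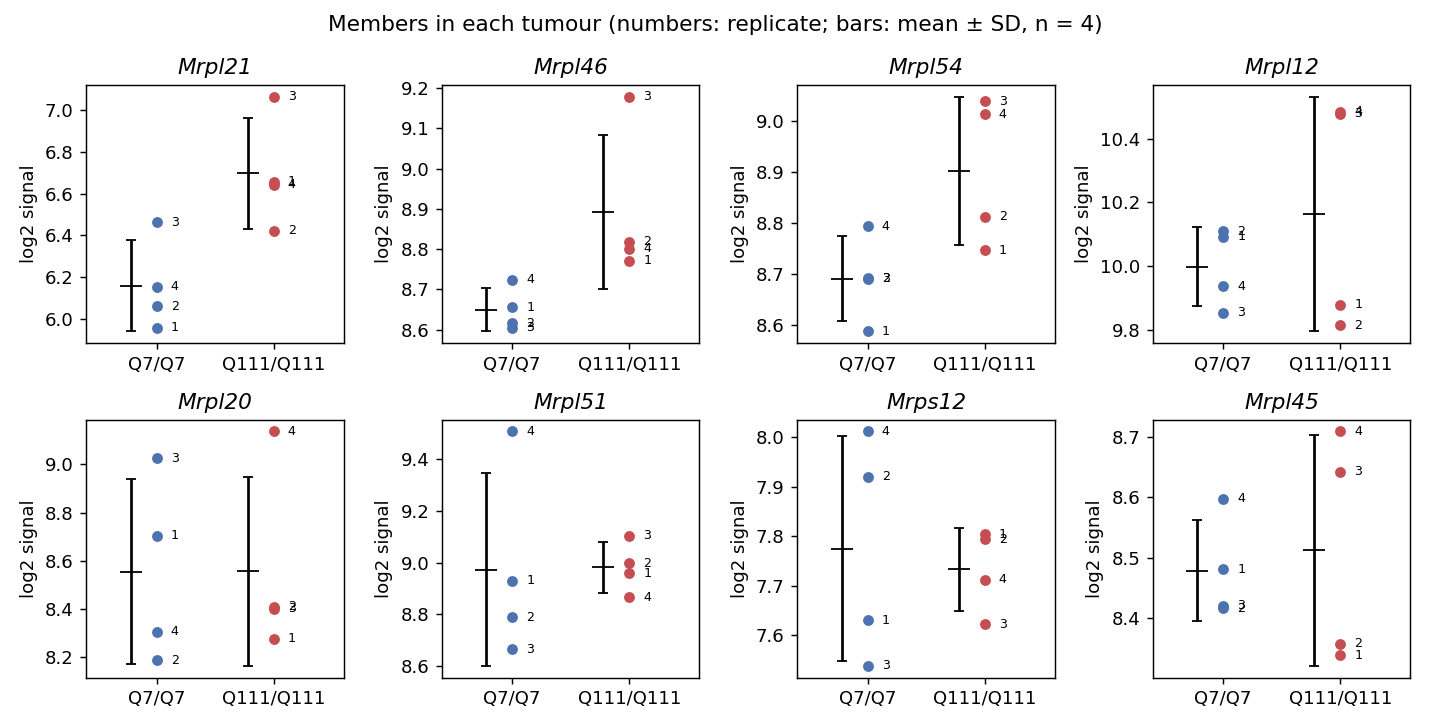
Log2 signal of 8 members in each tumour, with replicate numbers beside the points and the mean ± SD of the 4 tumours of a genotype as bars (each panel has its own vertical axis). In Mrpl12, HdhQ111/Q111 replicates 3 and 4 are both at 10.48 and the other 6 tumours are between 9.81 and 10.11.

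Proteins at known sites of the ribosome were next. Mrpl12, a stalk protein that recruits translation factors and also binds the mitochondrial RNA polymerase, had signals of 10.09, 10.11, 9.85 and 9.94 in HdhQ7/Q7 and of 9.88, 9.81, 10.48 and 10.48 in HdhQ111/Q111 tumours. The HdhQ111/Q111 tumours thus held both the lowest and the highest values. The log2 fold change was 0.17 (SE 0.17, adjusted p = 0.824, limma). Beside it in the stalk, Mrpl11 was at 0.15 and Mrpl10 at -0.06.

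Mrps12, a protein of the decoding centre, had a log2 fold change of -0.04 (adjusted p = 0.944, limma), and its HdhQ7/Q7 tumours, from 7.54 to 8.01, enclosed all HdhQ111/Q111 tumours, from 7.62 to 7.80. Mrpl45, which lies at the exit of the peptide tunnel and ties the ribosome to the inner membrane, was at 0.03 (adjusted p = 0.951, limma). Its signals were 8.48, 8.42, 8.42 and 8.60 in HdhQ7/Q7 and 8.34, 8.36, 8.64 and 8.71 in HdhQ111/Q111 tumours. HdhQ111/Q111 replicates 1 and 2 were the lowest of the 8 and replicates 3 and 4 the highest. Some other proteins placed around the tunnel were at 0.22 (Mrpl22), 0.16 (Mrpl24), 0.04 (Mrpl39) and 0.13 (Mrpl47). This group was put together after values were seen and is not a full list. Mrpl17, with the lowest log2 fold change of the large subunit (-0.08), was not in it. Among proteins of the central protuberance, also not a full list, Mrpl40 was at 0.26, Mrpl48 at 0.23 and Mrpl38 at 0.03.

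The members with the highest signals, Mrpl39, Mrpl35 and Mrpl36, had log2 fold changes of 0.04, 0.10 and 0.10 and overlapped between the genotypes. The low-signal members Mrpl22 and Mrpl48 were at 0.22 and 0.23 and overlapped too. In Mrpl48 the highest tumours were HdhQ111/Q111 replicates 1 and 2, at 7.02 and 7.07, and replicates 3 and 4, at 6.76 and 6.71, lay inside the HdhQ7/Q7 range of 6.48 to 6.89. This is the reverse of the order in most members.

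The largest spread within a genotype was in Mrpl20, Mrpl51 and Mrpl12. Mrpl20 had signals of 8.70, 8.19, 9.03 and 8.31 in HdhQ7/Q7 and of 8.28, 8.41, 8.40 and 9.14 in HdhQ111/Q111 tumours, with equal means and a 95% interval from -0.54 to 0.54. Mrpl51 had 8.93, 8.79, 8.67 and 9.51 in HdhQ7/Q7 and 8.96, 9.0, 9.10 and 8.87 in HdhQ111/Q111 tumours. HdhQ111/Q111 replicate 4 was the highest tumour in Mrpl20 and HdhQ7/Q7 replicate 4 in Mrpl51.

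The 8 members with a log2 fold change below 0 were Mrps24 (-0.14), Mrps23 (-0.10), Mrpl17, Mrpl10, Mrps12, Mrpl58, Mrpl52 and Mrps16. None of them had an unadjusted p of at most 0.05, and Mrps24, the lowest, had an adjusted p of 0.775 (limma). Mrpl58 is the peptide release factor that frees stalled ribosomes.

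The members shared an order of tumours that crossed the genotypes. For each gene the deviation from its mean over the 8 tumours was taken, and the median over members was computed in each tumour. It was -0.09, -0.07, -0.05 and -0.01 in HdhQ7/Q7 replicates 1 to 4. It was -0.03 and -0.10 in HdhQ111/Q111 replicates 1 and 2, and 0.19 and 0.13 in replicates 3 and 4. Over all probe sets the same medians lay between -0.03 and 0.04. The HdhQ111/Q111 group therefore held the lowest tumour and both of the highest.

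The single members showed the same order. HdhQ111/Q111 replicate 3 was the highest of the 8 tumours in 39 members (58.2%, against 20.4% of all probe sets) and replicate 4 in 18 (26.9%, against 14.5%). Replicate 1 was highest in 0 members and replicate 2 in 1. Replicate 2 was the lowest tumour in 23 members (34.3%, against 13.8%), more than any HdhQ7/Q7 tumour. Replicate 3 exceeded every HdhQ7/Q7 tumour in 53 members (79.1%, against 32.2% of all probe sets) and replicate 4 in 46 (68.7%, against 27.8%). Replicate 1 did so in 10 (14.9%, against 20.0%) and replicate 2 in 7 (10.4%, against 18.2%), both below the share of all probe sets. The SD was larger in HdhQ111/Q111 than in HdhQ7/Q7 tumours in 54 members (80.6%, against 50.9% of all probe sets). Its median over members was 0.10 in HdhQ7/Q7 and 0.17 in HdhQ111/Q111.

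HdhQ111/Q111 replicates 3 and 4 were then left out together, a choice made after their values were seen. Without them the log2 fold change was above 0 in 29 of the 67 members, against 48.8% of all probe sets, and its median was -0.01, against -0.0043 over all probe sets. With only replicate 3 left out 50 members were above 0 (53.5% of all probe sets), and with only replicate 4 left out 52 (54.9% of all).

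**Figure D3:**
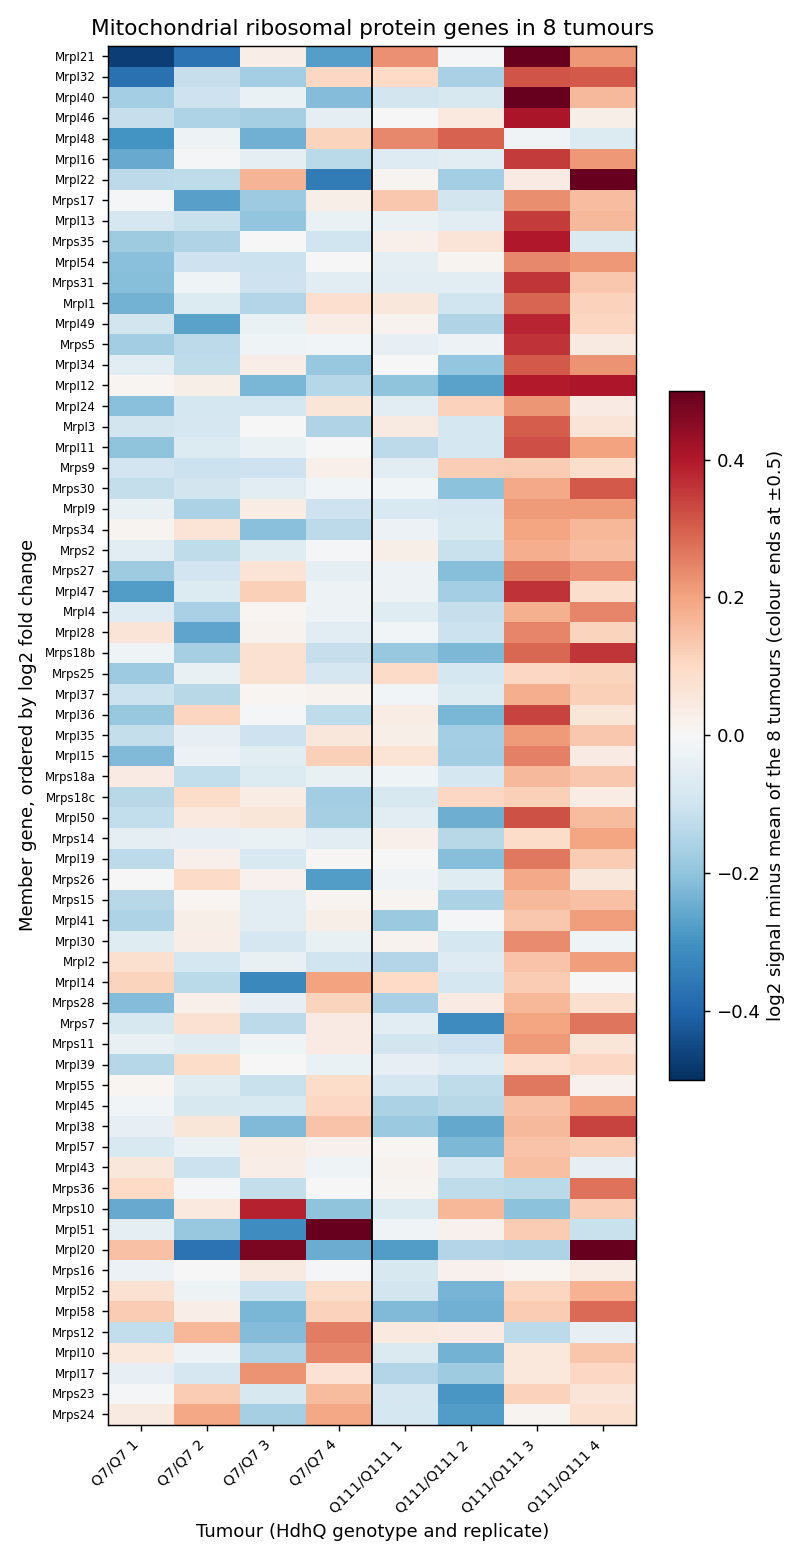
Log2 signal of each of the 67 members (rows, ordered by log2 fold change) in each of the 8 tumours (columns), minus the mean of the gene over the tumours, with red above and blue below that mean and colours ending at ±0.5. Red runs down the columns of HdhQ111/Q111 replicates 3 and 4, the highest tumours in 39 and 18 members, while replicate 2 is the lowest in 23.

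Other measures set the same tumours apart. The array medians of HdhQ111/Q111 replicates 3 and 4 were 7.74 and 7.68, and those of the other 6 arrays lay between 7.58 and 7.63. Of 6 skeletal muscle markers 4 were measured (Ckm, Tnnt3, Mb and Acta1), and their median deviation was 1.85 and 1.92 in these tumours and between -1.31 and 0.21 in the others. Their mean log2 signal ranged from 7.48 to 8.45 in HdhQ7/Q7 and from 7.08 to 10.01 in HdhQ111/Q111 tumours. Of 16 listed cell cycle and DNA replication genes 14 were measured, with median deviations of 0.53 and 0.50 in replicates 3 and 4. HdhQ7/Q7 replicate 4 was at -0.51 and the other tumours between -0.15 and -0.05. All 14 had a log2 fold change above 0 (median 0.38). At an unadjusted p of at most 0.05, 3 were higher, against 5.2% of all probe sets, and 0 had an adjusted p under 0.05 (limma). The part of muscle tissue, of cell division or of array brightness in the level of the members was not tested.

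Some markers of other cell types differed between the genotypes before adjustment, in part in another order of tumours. All 6 fibroblast markers were higher in HdhQ111/Q111 tumours at an unadjusted p of at most 0.05 (median log2 fold change 0.83), and their median deviation was 0.60, 0.12, 0.27 and 0.64 in replicates 1 to 4. All 5 adipocyte markers measured had a log2 fold change above 0 (median 1.35), 1 of them at that threshold. Their highest median deviation, 2.42, was in HdhQ111/Q111 replicate 1, and replicate 2 was at -0.77. In replicate 1 the members were at -0.03. Macrophage markers were higher at that threshold in 4 of 5 (median log2 fold change 0.38), with median deviations of 0.25, 0.08, 0.25 and 0.28 in replicates 1 to 4. Basal epithelium markers were higher in 2 of 4 (median 0.64), with deviations of -0.23, 0.66, 0.35 and 0.53. Of 4 T cell markers measured 3 were lower (median -0.30), and 0 of 4 endothelium markers passed in either direction (median 0.09). Over all probe sets 5.2% were higher and 2.68% lower at that threshold, and no marker of these lists had an adjusted p under 0.05 (limma). The part of these cell types in the result was not tested.

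**Figure D4:**
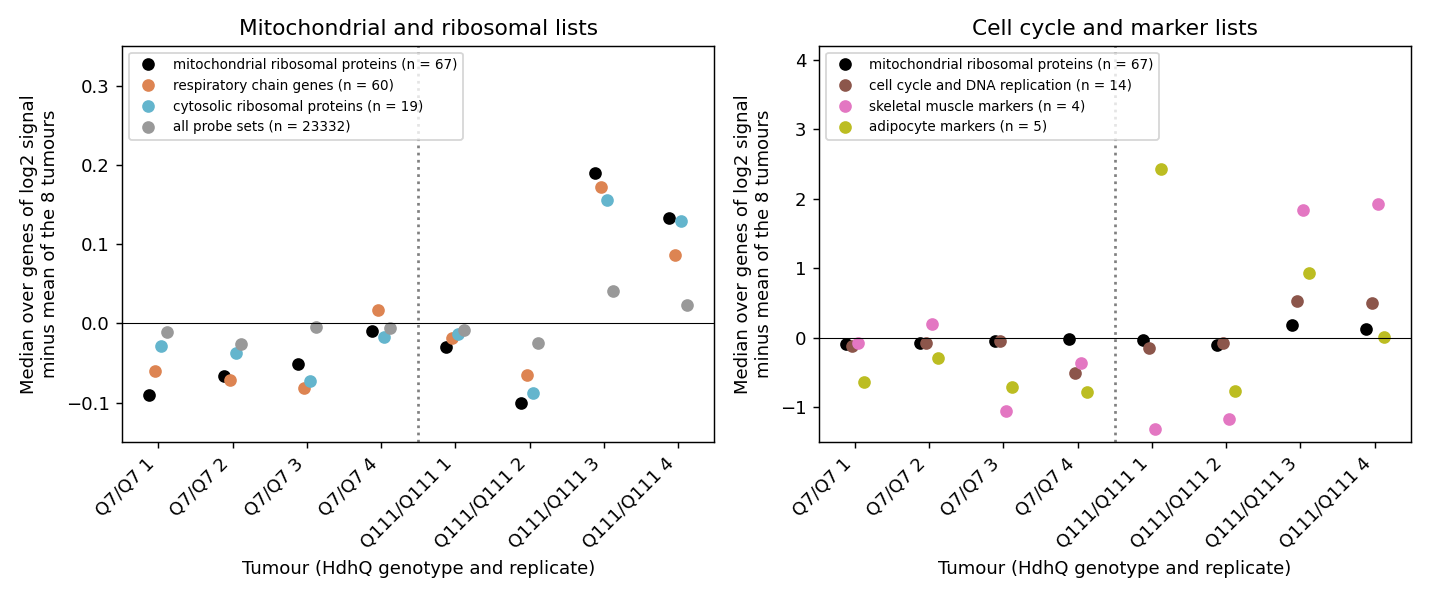
Median over the genes of a list of the log2 signal minus the mean of the 8 tumours (vertical axis) in each tumour, for mitochondrial and ribosomal lists (left) and for cell cycle genes and markers of muscle and fat (right, wider axis). The members are at 0.19 and 0.13 in HdhQ111/Q111 replicates 3 and 4, where the muscle markers are at 1.85 and 1.92, and all probe sets stay between -0.03 and 0.04.

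Other genes of mitochondrial translation had differences of a similar size. Of the mitoribosome subunits outside the Mrpl and Mrps names 3 were measured, Chchd1, Gadd45gip1 and Ptcd3, at 0.28, 0.14 and 0.16 (log2), and 0 had an unadjusted p of at most 0.05. Translation factors were above 0 in 13 of 15 (median 0.10) and mitochondrial aminoacyl-tRNA synthetases, which charge tRNAs, in 18 of 20 (median 0.10). Neither list had a gene with an unadjusted p of at most 0.05 in either direction. In HdhQ111/Q111 replicate 3 their median deviations were both 0.20, in replicate 4 they were 0.08 and 0.07, and in replicate 2 -0.07 and -0.05. Unlike in the members, replicate 2 was the lowest tumour in neither list. The lowest was HdhQ7/Q7 replicate 3 for the factors (-0.11) and HdhQ7/Q7 replicate 1 for the synthetases (-0.10).

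Genes for assembly of the ribosome and modification of its RNA were above 0 in 12 of 19 (median 0.05). At an unadjusted p of at most 0.05, 2 were higher, against 5.2% of all probe sets. Tfb1m, which methylates the small-subunit RNA, had signals of 9.04, 9.34, 9.25 and 9.53 in HdhQ7/Q7 and of 9.88, 9.45, 9.94 and 9.55 in HdhQ111/Q111 tumours. Only HdhQ111/Q111 replicate 2 lay inside the HdhQ7/Q7 range, and the log2 fold change was 0.41 (SE 0.14, adjusted p = 0.592, limma). Mtg1, a GTPase of large-subunit assembly, had 8.26, 8.12, 8.06 and 8.27 against 8.39, 8.34, 8.48 and 8.31, with no overlap and a log2 fold change of 0.20 (SE 0.08, adjusted p = 0.605, limma). Genes of mitochondrial DNA transcription and upkeep were above 0 in 7 of 9 and regulators of mitochondrial biogenesis in 9 of 11, with 0 at an unadjusted p of at most 0.05 in either list. None of these lists had a lower gene at that threshold.

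Genes of the respiratory chain and ATP synthase, a list taken by the start of the symbol and added after values were seen, had a median of 0.11 with 53 of 60 above 0. The list holds 6 assembly factors of complex I (Ndufaf symbols), and the 54 subunits without them had a median of 0.11 with 48 above 0. At an unadjusted p of at most 0.05, 7 were higher and 0 lower, against 5.2% and 2.68% of all probe sets, and all 7 were subunits. The smallest p was that of Atp5mpl, a small ATP synthase subunit. It was the only gene of the list past the thresholds of the study, which 1.36% of all probe sets passed. Its signals were 8.12, 8.24, 7.96 and 7.97 in HdhQ7/Q7 and 8.32, 8.76, 8.71 and 8.86 in HdhQ111/Q111 tumours, without overlap (log2 fold change 0.59, SE 0.13, adjusted p = 0.370, limma). Cytosolic ribosomal proteins, also added later, had a median of 0.05 with 15 of 19 above 0. These 19 are only the genes with a single-symbol probe set and do not stand for the whole cytosolic ribosome. Their mean signal was 7.82 to 7.93 in HdhQ7/Q7 and 7.86 to 8.15 in HdhQ111/Q111 tumours. That of the members was 8.93 to 9.02 and 8.93 to 9.22. In HdhQ111/Q111 replicates 3 and 4 the respiratory list was at 0.17 and 0.09 and the cytosolic ribosomal list at 0.16 and 0.13.

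Mrpl33, the gene left out, was at 8.10, 7.94, 8.05 and 8.26 in HdhQ7/Q7 and at 7.37, 7.42, 7.39 and 7.38 in HdhQ111/Q111 tumours. The genotypes were far apart, with a log2 fold change of -0.70 (SE 0.08, adjusted p = 0.0649, limma). Unlike in the members, HdhQ111/Q111 replicates 3 and 4 did not stand apart from replicates 1 and 2. It lies near Htt, so an effect of the expanded allele and one of linked sequence carried along with the knock-in cannot be told apart.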

How the data were processed

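The authors deposited log2 signals per probe set. Their methods name quantile normalization and a background correction from antigenomic probes for the exon arrays. The medians of the deposited arrays differ (7.58 to 7.74), and whether these steps apply to this table is not stated. No further normalization was done. Symbols are those of the platform annotation, and all 67 members matched RefSeq by gene ID. The test between genotypes was limma (version 3.58.1, R 4.3.3), two-sided, adjusted by Benjamini-Hochberg across the 23332 probe sets, and single genes also with an exact permutation test over 70 labellings of the tumours. The number of arrays limits the precision. The model step was tested on simulated data. Named members were those with an unadjusted p of at most 0.05, the 3 highest and 3 lowest in signal, the 3 with the largest SD, and Mrpl12, Mrps12 and Mrpl45 for their role. Others were chosen after their values were seen. The members and lists were chosen with earlier results of these data known. Other settings tried were array weights, a variance trend, the methods' t-test, centring, quantile normalization, a filter that removed the dimmest 40%, a replicate block, fewer tumours and other member rules. Correlations between arrays were 0.984 to 0.990, and no arrays were duplicates. Promoter windows came from RefSeq (GRCm38.p6). Figures used matplotlib 3.10.9 under Python 3.11.15.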

Additional observations from a re-analysis of the deposited data

Results flagged for a closer look

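In Mrpl46, HdhQ111/Q111 replicate 3, at 9.18, lay far above the other 3 tumours of its genotype (8.77 to 8.82). In Mrpl20, HdhQ111/Q111 replicate 4, at 9.14, lay far above the others (8.28 to 8.41). In both, the gap to the next tumour, divided by the range of the 4 (0.885 and 0.846), was above Dixon's 95% critical value for 4 samples. Among the members 4 of 134 groups were beyond that value, and chance alone puts about 5% of groups there.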

How the results depend on the processing

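With 4 arrays per genotype, no member had an adjusted p under 0.05 under any alternative run. The 3 higher members at an unadjusted p of at most 0.05 (4.48%, against 5.2% of all probe sets) became 5 with array weights (7.46%, against 5.35%), 1 with quantile normalization (1.49%, against 3.65%) and 1 with centred arrays (1.49%, against 2.71%). They were between 1 and 12 with one tumour left out. The count was 12 without HdhQ111/Q111 replicate 2 (17.9%, against 6.74%), 8 without HdhQ7/Q7 replicate 4 (11.9%, against 5.32%) and 7 without HdhQ111/Q111 replicate 1 (10.4%, against 5.57%). It was 3 without HdhQ111/Q111 replicate 4 (4.48%, against 4.82%). It was 1 (1.49%) without any one of HdhQ7/Q7 replicates 1, 2 and 3 (against 4.09%, 4.34% and 4.93%) or without HdhQ111/Q111 replicate 3 (against 3.71%). Leaving out one tumour gave 0 to 1 members past the study's thresholds and a median between 0.06 and 0.16. With Mrpl33 counted, 1 member was lower and 1 passed the study's thresholds. Without HdhQ111/Q111 replicates 3 and 4 the median was -0.013 and 29 members were above 0. The median over all probe sets was 0.02 as deposited, -0.01 after quantile normalization and -0.05 after centring, and the members exceeded it by 0.08 in each. Without the dimmest 40% of probe sets the median of the rest was 0.04, and the members exceeded it by 0.054. The excess was 0.045 without HdhQ111/Q111 replicate 3, 0.054 without replicate 4 and -0.0091 without both.

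Single members changed sign as follows. Without replicates 3 and 4 the log2 fold change was -0.032 for Mrpl39, -0.019 for Mrpl35, -0.042 for Mrpl36, -0.21 for Mrpl20, -0.15 for Mrpl12, -0.13 for Mrpl45 and 0.024 for Mrps12. With centred arrays it was -0.028 for Mrpl39, -0.035 for Mrpl45, -0.067 for Mrpl20 and -0.059 for Mrpl51. After quantile normalization it was -0.057 for Mrpl20, -0.051 for Mrpl51 and -0.031 for Mrpl45, and with array weights -0.062 for Mrpl20. With one tumour left out it ran from -0.00097 to 0.078 for Mrpl39, -0.19 to 0.16 for Mrpl20, -0.094 to 0.19 for Mrpl51, -0.12 to 0.037 for Mrps12 and -0.033 to 0.091 for Mrpl45. The cause was not tested.

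With the replicate block 3 members were higher (4.48%, against 4.80% of all probe sets), and the median was 0.10. Of these, 2 were among the 3 named, with Mrps17 in place of Mrpl46. Samples of the same number correlated in their deviations between -0.19 and 0.03. Pairs of unlike number were not set beside them, so whether such samples share more than the number cannot be told. With the last letter of the NRF-1 motif dropped, a search made after the share with all 10 letters was seen, 24.1% of member genes and 7.0% of all genes held it.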
